A study of Homo sapiens with 12 samples.

Results

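The zinc finger genes of chromosome 19 were taken as all genes of that chromosome whose symbol is ZNF followed by digits only. The array files name probes by accession, and 266 of the 41000 gene probes had a RefSeq accession of such a gene. They stood for 184 genes, and they are called members here. A member probe was kept when its spot was well above background, as flagged by the scanner software, in 5 or all 6 arrays of either condition. This left 217 probes of 159 genes, of which 199 probes of 150 genes passed in both conditions and 18 probes passed in 1 condition only. The remaining 49 probes were not kept, and 25 member genes had no probe kept.

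The arrays were one-colour Agilent 44 k arrays hybridised with RNA of H358/Tet-On/SRSF2, a single inducible clone of the human lung carcinoma line H358 in which a Tet-responsive promoter drives the splicing factor SRSF2. Of the 12 arrays, 6 are labelled control, with no treatment given in the labels, and 6 carry the label SRSF2 over-expression, after 24 hours with 1 μg/mL doxycycline. The latter are called the arrays labelled over-expressing. All cells of both conditions carried the inducible construct, and doxycycline is given for the second condition only. An effect of doxycycline itself and one of the induced construct therefore cannot be told apart. The arrays lay on 3 slides, each with 2 arrays of both conditions. Per the study's supplement, each condition had 3 labelings of RNA with 2 arrays for each, so that the 6 arrays of a condition hold repeat hybridisations and are not 6 independent samples. Nor do the labels say that the labelings came from separate cultures. The p-values below measure the spread between arrays, which may be technical, and they count repeat hybridisations as replicates.

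Most ZNF genes of chromosome 19 encode proteins with a row of C2H2 zinc fingers, each of which reads a short stretch of DNA, behind a KRAB domain. The KRAB domain binds the corepressor TRIM28, which brings in the histone methyltransferase SETDB1 and HP1 proteins, and the locus bound is packed into silent chromatin. Many of their known targets are transposable elements. The genes arose by tandem duplication and lie in dense neighbourhoods of close relatives, and most of the proteins have no known function of their own. SRSF2, an SR protein, binds exonic sequences in pre-mRNA and takes part in the choice of splice sites.

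The single SRSF2 probe, A_23_P77776, ranged from 3.74 to 4.03 (median 3.96) in the controls and from 2.29 to 2.56 (median 2.51) in the arrays labelled over-expressing. Levels here and below are log2 signals minus the 75th percentile of the gene probes on the same array. The probe was thus lower on every array labelled over-expressing (log2 difference -1.46 ± 0.063 SE, limma adjusted p = 1.68e-09), which goes against the label. Whether the probe can detect the transcript of the construct is not known here, so all directions below are those of the arrays as labelled. Markers of the labelled cell type were present, with 6 of 6 epithelial genes well above background on all arrays. So were NKX2-1, NAPSA and SFTPC of the 5 lung genes, with SFTPA1 on 8 arrays and SFTPB on 2. Of the markers of other cell types, COL1A2, COL3A1, DCN, PTPRC and CDH5 were well above background on no array, whereas CD3E was so on 10 arrays and CD14 and PECAM1 on 12, and their part in the results was not tested. Control replicate 3 and SRSF2 over-expression replicate 4, both on slide 2, stood apart by their dim spots. They had 176 and 198 member probes well above background, against 206 to 239 on the other arrays, and 52.9% and 53.9% of all gene probes, against 58.2% to 66.8%.

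Most of the chromosome 19 zinc finger probes were higher on the arrays labelled over-expressing. Among the 199 member probes measured in both conditions, 141 (70.9%) were up-regulated by the adjusted p of limma, with 0.05 as the limit, and 25 (12.6%) were down-regulated, and 33 did not pass. Among all 22693 probes measured in both conditions, the same criterion called 29.6% up and 27.8% down. The median log2 difference of the members was 0.52, with quartiles of 0.14 and 0.75 and a range from -1.19 to 2.80, and the median of all probes was 0.01. The arrays measure bulk RNA, so a change in every cell and a change in some of the cells cannot be told apart.

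Most member differences were smaller than 2-fold, though larger rises were also more frequent than among all probes. At a fold change (FC) of at least 2, which the methods of the study used with the same adjusted p, 24 of the 199 probes (12.1%) were up-regulated and 2 (1.01%) were down-regulated, against 2.74% and 2.69% of all probes. In 109 member probes every array labelled SRSF2 over-expression lay above every control array, and in 18 every one lay below, against 21.2% and 18.9% of all probes. With the 18 probes that passed in 1 condition only, whose way of being kept favours a difference, 33 of 217 were up-regulated and 2 down-regulated at 2-fold, where 3.68% and 3.31% of the 24330 probes kept were called. By the adjusted p alone, 155 of the 217 were up and 26 down, against 29.7% and 28.0%.

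The rise was not limited to the members, since other zinc finger probes were also mostly higher. The probes of other genes of the chromosome were not. The 191 probes of ZNF genes with digits on other chromosomes had a median log2 difference of 0.23, with 100 up-regulated (52.4%), 25 down-regulated, and 8 and 3 at 2-fold. The 893 probes of the other genes of chromosome 19 had a median of -0.086, with 183 up-regulated (20.5%) and 296 down-regulated (33.1%). A further 12 probes of chromosome 19 genes with other zinc finger symbols (ZFP, ZSCAN, ZIM or ZIK) had a median of 0.69, and 11 of them were up-regulated. No test was made of these lists against each other.

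**Figure D1:**
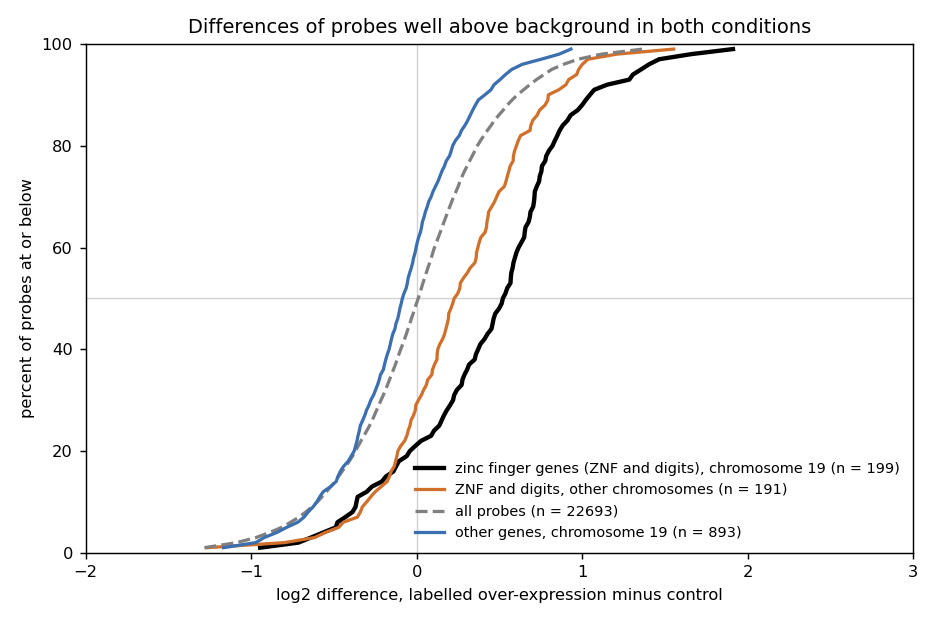
Cumulative distribution of the log2 difference, labelled SRSF2 over-expression minus control, over probes well above background in both conditions. The vertical axis gives the percent of probes at or below a difference, drawn from the percentiles 1 to 99. The curve of the 199 chromosome 19 zinc finger probes crosses 50% at 0.52, that of 191 ZNF probes of other chromosomes at 0.23, that of all 22693 probes at 0.01 and that of 893 other chromosome 19 probes at -0.086.

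The group difference was seen on each slide. Over the 199 probes, slides 1, 2 and 3 gave medians of 0.46, 0.48 and 0.59, where the medians of all probes were 0.021, 0.03 and -0.0087. By slide, 77.4%, 80.9% and 79.4% of the member differences were positive, against 51.9%, 53.3% and 49.2% of those of all probes. The member difference was positive on all slides in 146 probes, negative on all in 30 and mixed in 23. That count was not made for all probes and is a description only. By array, the median deviation of the member probes from their own means ranged from -0.29 to -0.16 over the 6 control arrays and from 0.16 to 0.31 over the 6 arrays labelled over-expressing. The ranges did not overlap. Without control replicate 3 and SRSF2 over-expression replicate 4, 137 of the 199 probes were up and 23 down by the adjusted p, against 28.4% and 27.1% of all probes, with a member median of 0.52. When the 2 control arrays of each slide were averaged to 1 value, and likewise the 2 others, 116 were up and 18 down, where 19.3% and 18.8% of all probes were. The 10 largest rises and the 10 largest falls described below passed the adjusted p with these averages too.

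The size of the values depended on the background correction. With normexp correction on the median spot signal in place of the subtraction done by the scanner software, the member median was 0.13 and that of all probes -0.076, and 30 of the 199 member probes were up and 6 down by the adjusted p, where 6.20% and 6.21% of all probes were. At 2-fold, 3 of the 217 probes were then called up and 0 down. Positive differences numbered 119 of the 199, where the main processing gave 156. Shares of all probes are not given for these counts, which are descriptions only. Without any background subtraction the member median was 0.39 against -0.0019 for all probes. Scaling on spike-in controls shifted the median of all probes to 0.22 and that of the members to 0.73, and changed the member split from 141 up and 25 down to 120 up and 4 down, while the shares of all probes went from 29.6% up and 27.8% down to 19.8% up and 5.53% down. Most member probes were dim, but the difference was not limited to the dimmest. In 4 equal bins of the mean signal of all probes, from dim to bright, the member medians were 0.62 (65 probes), 0.46 (87), 0.55 (42) and -0.20 (5), and those of all probes lay between -0.0044 and 0.023. The 5 of the brightest bin, chosen for mention after their values were seen, were ZNF254 (0.51), ZNF444 (-0.42), one probe each of ZNF544 (-0.20) and ZNF575 (-0.19), and ZNF579 (-0.36). Of these, ZNF254 rose, ZNF444 and ZNF544 fell, and ZNF575 and ZNF579 did not pass the test (limma adjusted p = 0.492 and 0.0982).

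**Figure D2:**
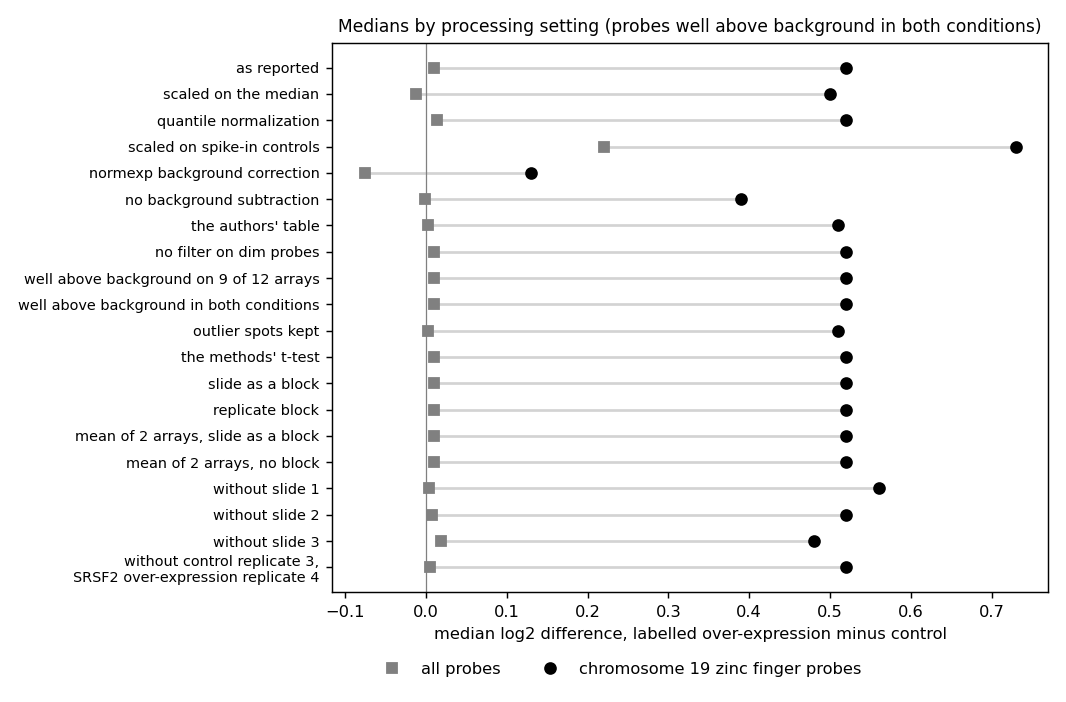
Median log2 difference over the member probes (circles) and over all probes (squares), both well above background in both conditions, under each way of processing the arrays. The circle lies right of the square in every setting, from 0.13 against -0.076 with normexp to 0.73 against 0.22 with scaling on spike-in controls.

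The largest rise among the members was that of ZNF562. Its probe A_32_P142550 ranged from -3.33 to -2.72 (median -3.20) in the controls and from -0.47 to 0.029 (median -0.38) in the arrays labelled over-expressing. The named rises and falls were chosen among probes whose arrays separate completely by condition, so that the lack of overlap is part of the choice. The log2 difference of ZNF562 was 2.80 ± 0.13 (SE, 6 arrays a condition), a FC of 6.97 (limma adjusted p = 3.60e-09). The difference was 2.72, 2.74 and 2.95 on the 3 slides. With normexp the difference was 1.49 and still passed. The other probes of ZNF562, A_23_P95923 and A_24_P348208, rose by far less (0.23 and 0.19). ZNF121 came next and lies close to ZNF562 on the chromosome, with only ZNF561 between them among the members. Its probe A_24_P935782 ranged from -4.21 to -3.80 (median -4.14) in the controls and from -2.10 to -1.89 (median -2.0) in the arrays labelled over-expressing. The log2 difference was 2.08 ± 0.071 (SE; limma adjusted p = 2.87e-10), but with normexp the difference was 0.63 and did not pass (adjusted p = 0.400).

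The promoters of this pair are shown because the genes lie nearly side by side and gave the largest rises. The sequences are the 120 bases before the annotated start, from RefSeq (GRCh38.p14), written 5′ to 3′ on the strand of the gene, with capitals marking GGGCGG, the GC box bound by SP1, on either strand.
ZNF562 (chr19:9675101-9675220, minus strand): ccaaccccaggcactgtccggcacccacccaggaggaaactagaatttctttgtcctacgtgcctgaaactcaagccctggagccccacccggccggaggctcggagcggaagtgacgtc
ZNF121 (chr19:9584505-9584624, minus strand): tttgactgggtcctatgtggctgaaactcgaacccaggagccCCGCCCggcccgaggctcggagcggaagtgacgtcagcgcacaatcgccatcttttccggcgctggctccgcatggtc
Farther up, the promoters of both genes share an identical run of 29 bases, which ended 168 bases before the start of ZNF121 (chr19:9584672-9584700) and 216 bases before that of ZNF562 (chr19:9675316-9675344). No promoter of any other of the 27305 genes in the table held it, and no other pair of the named rises and falls shared a run of more than 12 bases. The run is shown because it is shared by the pair of genes with the largest rises. It holds GGGCGG on the other strand, left in lower case here, so a GC box lay in the promoters of both genes. The windows above also share a shorter identical stretch, gaggctcggagcggaagtgacgtc, which lies nearer the start and is not marked.
Shared run: gccgggtcccacctctaaaccgcccccaa

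ZNF614 probe A_23_P355993 ranged from -5.25 to -2.62 (median -3.48) in the controls and from -1.90 to -1.21 (median -1.75) in the arrays labelled over-expressing. Its spread was the widest of the 10 rises, with control replicate 3 far below the rest. The log2 difference was 1.91 ± 0.36 (SE; limma adjusted p = 6.10e-04), between 1.46 and 2.54 over the slides, and 1.61 without control replicate 3 and SRSF2 over-expression replicate 4. ZNF557 probe A_23_P90021 ranged from -4.67 to -4.14 (median -4.24) in the controls and from -2.64 to -2.31 (median -2.44) in the arrays labelled over-expressing. The difference of 1.84 ± 0.089 (SE; limma adjusted p = 4.28e-09) was nearly the same on each slide, from 1.81 to 1.88. The other probes of both genes rose less, with 0.42 and 0.71 for ZNF614 and 0.38 for ZNF557.

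ZNF304, a KRAB zinc finger protein reported to bring TRIM28 to silenced tumour suppressor genes, rose on both of its probes. Probe A_23_P208288 ranged from -2.42 to -1.95 (median -2.05) in the controls and from -0.87 to -0.45 (median -0.50) in the arrays labelled over-expressing, a difference of 1.5 ± 0.10 (SE; limma adjusted p = 5.50e-08). Probe A_24_P228266 ranged from -4.16 to -2.86 (median -3.50) and from -2.27 to -1.62 (median -1.83), a difference of 1.65 ± 0.18 (SE; limma adjusted p = 6.47e-06). The probes gave a FC of 2.82 and of 3.14. ZNF552 (1.46 ± 0.10 SE), ZNF610 (1.43 ± 0.058) and ZNF813 (1.37 ± 0.066) also rose. ZNF813 probe A_32_P3998 ranged from -1.32 to -0.92 (median -1.24) in the controls and from 0.11 to 0.20 (median 0.18) in the arrays labelled over-expressing. With normexp, the rises of ZNF562, ZNF473 and ZNF813 (0.95) passed the test, and the other 7 of the 10 probes kept their sign but did not, with differences of 0.30 to 0.80 and adjusted p from 0.0646 to 0.739.

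**Figure D3:**
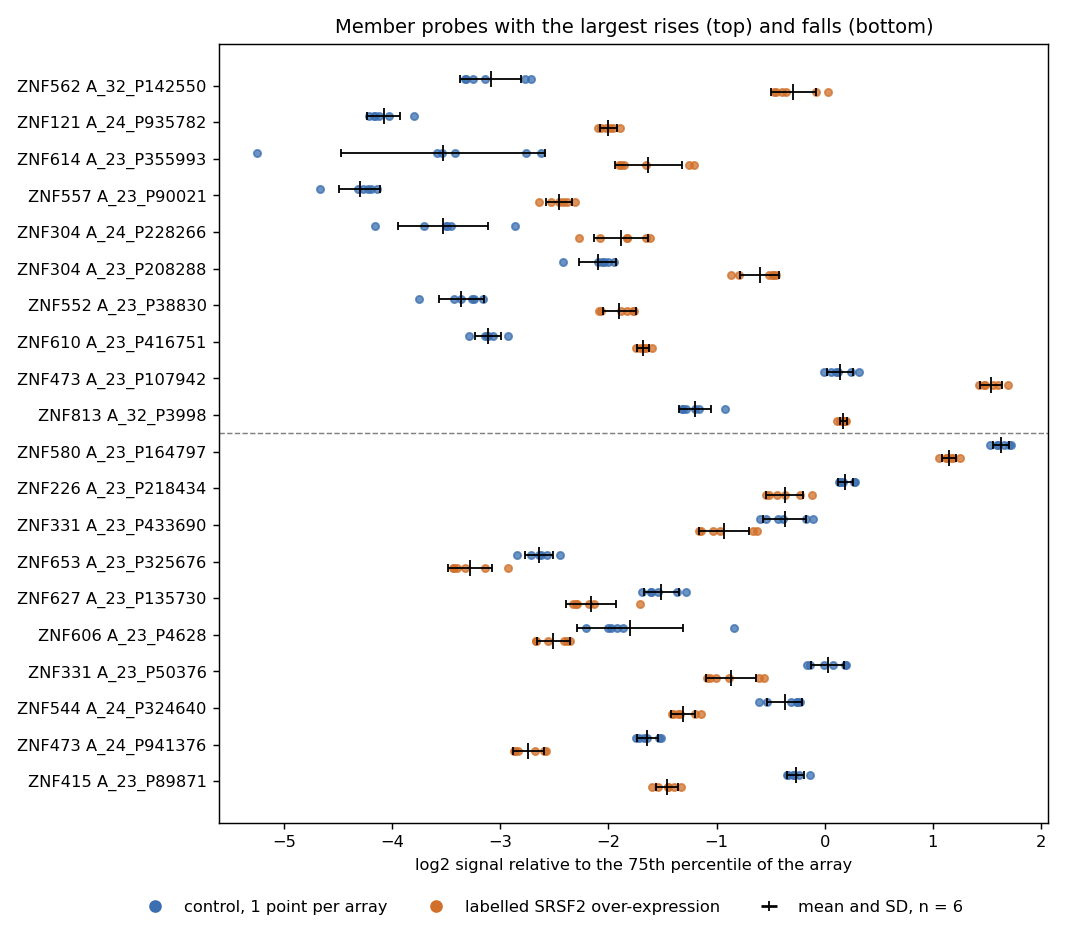
Level of the 10 member probes with the largest rises (above the dashed line) and the 10 with the largest falls (below it) on each array, as log2 signal minus the array's 75th percentile. Points are single arrays, and the bars give the mean and SD of 6 arrays. The probes were chosen among those whose conditions do not overlap. The lone control points of ZNF614 at -5.25 and of ZNF606 at -0.84 are both of control replicate 3.

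The falls were fewer and smaller. ZNF415 showed the largest fall, with probe A_23_P89871 from -0.35 to -0.14 (median -0.29) in the controls and from -1.60 to -1.33 (median -1.45) in the arrays labelled over-expressing. The log2 difference was -1.19 ± 0.058 (SE), a FC of 2.28 (limma adjusted p = 4.89e-09), with -1.23, -1.26 and -1.08 on the 3 slides. ZNF331, an imprinted gene, fell on both of its probes, by 0.90 and 0.56 on the log2 scale. Its probe A_23_P50376 ranged from -0.16 to 0.20 (median 0.034) in the controls and from -1.09 to -0.56 (median -0.95) in the arrays labelled over-expressing. ZNF331 and ZNF226 (-0.56 and -0.30) were the 2 member genes with several kept probes of which all fell.

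ZNF544 fell on probe A_24_P324640, from a median of -0.29 on the control arrays (-0.61 to -0.23) to -1.35 on the others (-1.41 to -1.14), a difference of -0.94 ± 0.080 (SE; limma adjusted p = 5.91e-07). Of its other probes, A_23_P141856 fell by 0.20 on the log2 scale and A_23_P141863 did not pass (-0.12, limma adjusted p = 0.0589). ZNF606 (-0.71 ± 0.19 SE), ZNF653 (-0.64 ± 0.10), ZNF627 (-0.64 ± 0.11) and ZNF580 (-0.48 ± 0.049) also fell. The fall of ZNF606 was uneven, at -0.35 on slide 1, -1.29 on slide 2, which holds control replicate 3, and -0.47 on slide 3, and the whole difference was -0.41 without slide 2. With normexp, ZNF415 (-0.91), ZNF544 (-0.69), ZNF226 (-0.47) and both probes of ZNF331 (-0.72 and -0.53) still passed, and the other 5 of the 10 did not. With scaling on spike-in controls, 4 of the 10 falls passed, those of ZNF415, ZNF473, ZNF544 and ZNF331 A_23_P50376.

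Where a gene had several probes, they mostly moved the same way. Of the 47 member genes with 2 or more probes kept (105 probes), 40 (85.1%) had probes of one sign, positive in 36 of them, against 68.2% of all 3741 named genes with several probes kept. All probes were up-regulated in 34 member genes (72.3%) and all down-regulated in 2 (4.26%), against 18.6% and 16.2% of all such genes. For members and for all genes alike, these counts include probes that passed in 1 condition only, as did a probe of ZNF625. The way such probes were kept favours a difference, so the counts are given as a description. The range of the log2 differences within a gene had a median of 0.37 and was above 1 in 6 genes, which were ZNF160, ZNF473, ZNF557, ZNF562, ZNF587 and ZNF614. The files give no probe sequences, so the exon or isoform that a probe matches, and any match to a related gene, could not be checked.

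In 3 genes, 1 probe rose and another fell. ZNF473 encodes a protein of the U7 snRNP that takes part in the 3′ end processing of histone pre-mRNA, and its probes differed most plainly. Probe A_23_P107942 ranged from -0.0033 to 0.32 (median 0.11) in the controls and from 1.43 to 1.69 (median 1.52) in the arrays labelled over-expressing, a difference of 1.40 ± 0.066 (SE; limma adjusted p = 3.81e-09). Probe A_24_P941376 ranged from -1.75 to -1.51 (median -1.65) and from -2.87 to -2.58 (median -2.76), a difference of -1.10 ± 0.070 (SE; limma adjusted p = 4.49e-08). Both kept their direction on each slide, at 1.36 to 1.43 and at -1.12 to -1.07. With normexp the rise was 1.18 and passed, whereas the fall was -0.78 and did not (adjusted p = 0.125).

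ZNF160, reported to repress the receptor gene TLR4, had 4 probes kept. Probe A_24_P241792 ranged from -0.94 to -0.53 (median -0.74) in the controls and from -0.15 to 0.52 (median -0.0091) in the arrays labelled over-expressing, and rose by 0.87 ± 0.13 (SE; limma adjusted p = 8.05e-05). Probe A_24_P401241, kept through the arrays labelled over-expressing only, had a difference of 1.46. Probe A_24_P16950 rose by 1.06 but was no longer past the test without slide 3 (1.07, adjusted p = 0.104). Probe A_23_P396804 fell from a median of -2.79 (-2.89 to -2.64) to -3.02 (-3.45 to -2.90), a difference of -0.30 ± 0.086 (SE; limma adjusted p = 0.00883). In ZNF587, probe A_24_P313804 rose by 0.68 ± 0.094 (SE) from a median of -1.95 to -1.28, and A_23_P101281 fell by 0.37 on the log2 scale from -0.48 to -0.85. Neither the fall in ZNF160 nor that in ZNF587 passed with normexp or with scaling on spike-in controls.

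**Figure D4:**
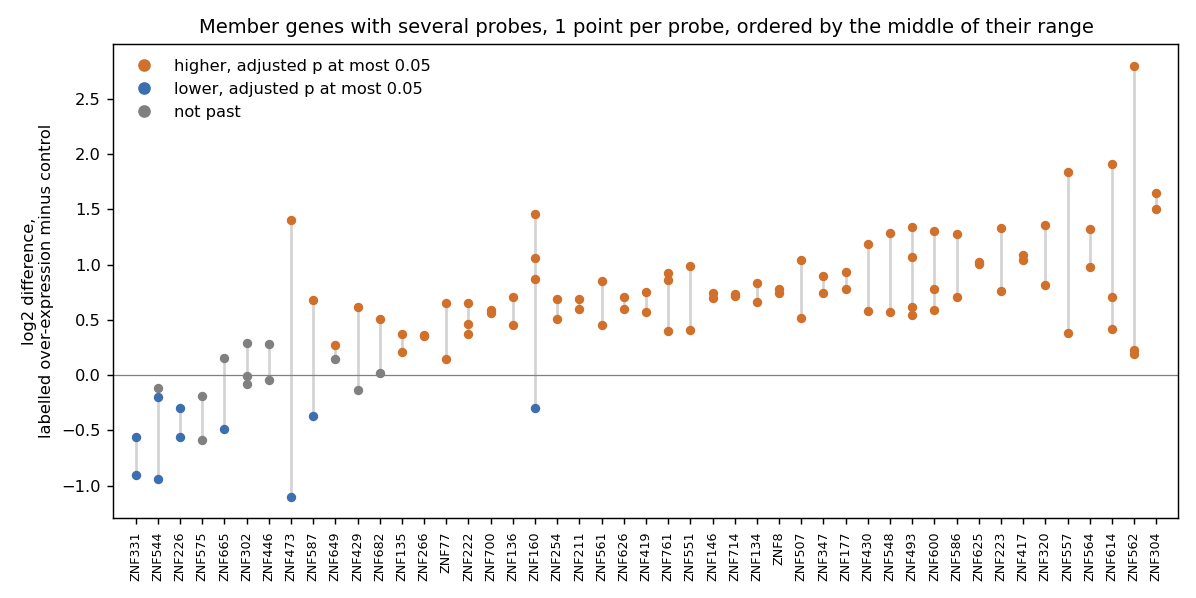
Log2 difference, labelled SRSF2 over-expression minus control, of every kept probe of the 47 member genes with several probes, ordered by the middle of their range. Colours mark calls by the adjusted p with 0.05 as the limit, and grey lines join the probes of a gene. ZNF473 has 1 probe at 1.40 and another at -1.10, and ZNF562 has 1 probe at 2.80 above 2 at 0.23 and 0.19.

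Of the 18 probes well above background in 1 condition only, 15 passed through the arrays labelled over-expressing and 3 (of ZNF575, ZNF583 and ZNF665) through the control arrays. ZNF577 probe A_23_P309207 passed the background flag in 4 controls and in all 6 others, and it ranged from -4.50 to -3.73 (median -4.13) over all controls and from -2.54 to -2.11 (median -2.41) over the others. The differences of these probes are given as a description, since the values that kept them also set the difference. For ZNF577 it was 1.76, a FC of 3.38, or 3.25 when each control value below the lowest signal well above background on its array was raised to that signal. ZNF625 probe A_24_P344537 had a difference of 1.01, and its probe A_32_P182473, measured in both conditions, rose by 1.02 ± 0.10 (SE). The difference was -0.49 in ZNF665 probe A_32_P79591 and -0.59 in ZNF575 probe A_23_P401084. With normexp, the differences of ZNF577 and ZNF625 A_24_P344537 were 0.33 and 0.037.

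Of the 49 probes not kept, 19 were well above background on no array and 30 on some, at most on 7. The threshold fell in the dim tail of the members. The 198 probes well above background on all 6 arrays of a condition had a median level of -1.34, the 19 with 5 such arrays -3.98 (-4.66 to -3.32), and the 3 just outside, with 4, -4.81 (-6.16 to -4.04).

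Members of most neighbourhoods of the chromosome were higher. Members were placed in one neighbourhood when at most 5 protein-coding genes of other kinds lay between them in the RefSeq gene order. This gave 11 neighbourhoods of at least 3 genes, which held 170 of the 184 genes, and the median log2 difference was above 0 in 10 of them. The neighbourhood from ZNF577 to ZNF331, with 34 probes, had the highest median among them, 0.70, with 25 probes up and 6 down, and it held both the rises of ZNF614, ZNF610, ZNF813 and ZNF160 and the falls of ZNF415 and ZNF331. That from ZNF101 to ZNF254, with 28 probes, had a median of 0.61, quartiles of 0.56 and 0.72, 24 probes up and 0 down. That from ZNF787 to ZNF446 was the largest, with 47 probes, a median of 0.50, 33 up and 5 down.

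The 13 probes from ZNF317 to ZNF562 all had positive differences (median 0.45, 12 up). From ZNF653 to ZNF791 (13 probes, median 0.46) and from ZNF404 to ZNF180 (18 probes, median 0.42) most members rose, while ZNF653, ZNF627 and ZNF226 fell. From ZNF565 to ZNF573 (13 probes, median 0.29), 8 probes were up and 4 down. From ZNF302 to ZNF792 (5 probes, median 0.29) 2 were up and 0 down. The 6 probes from ZNF628 to ZNF580 had a median of 0.10, with 2 up and 1 down. The 5 from ZNF555 to ZNF77 had a median of 0.65, with 4 up and 1 down. The 3 probes from ZNF575 to ZNF428 had a negative median, -0.35, and none passed the test. Of all probes measured in both conditions, 29.6% were up and 27.8% down. Relatives that lie side by side thus differed in direction in several places, with ZNF415 falling next to ZNF347, of which both probes rose (0.74 and 0.90), and ZNF606 falling between ZNF256 (0.65) and ZNF135 (0.21 and 0.37), which rose.

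**Figure D5:**
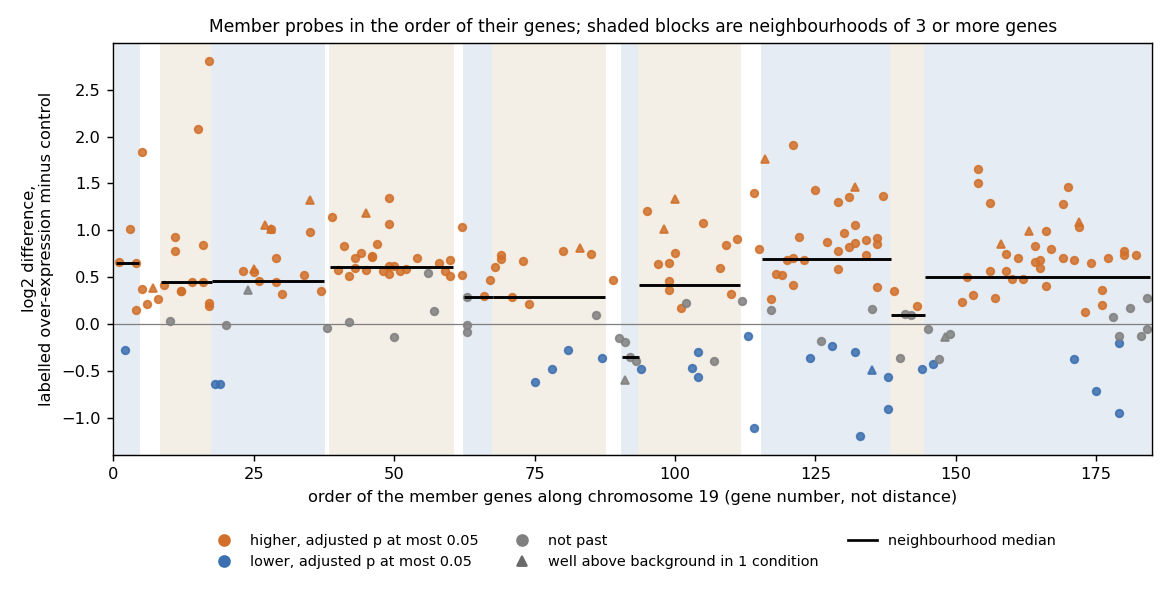
Log2 difference of each kept member probe against the order of its gene along chromosome 19, where the horizontal axis counts genes and not distance. Shaded blocks are the 11 neighbourhoods of 3 or more genes and black lines their medians over probes well above background in both conditions, from -0.35 to 0.70. Triangles are probes well above background in 1 condition only, and colours mark calls by the adjusted p with 0.05 as the limit.

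The members also share features of their promoters that the choice of genes did not use. Of the 184 genes, 161 had a promoter of 300 bases in the RefSeq table (250 before the start and 50 after). The motifs were chosen after looking at member promoters, and both strands were searched. The members are set beside all genes with a promoter in that table. That set was not limited to the 16557 genes named on the arrays, nor matched to the members by kind of gene. TCCAATCA, which contains the CCAAT box bound by NF-Y, was in the promoters of 24.8% of the members and of 1.90% of all 27305 genes, and CCAAT itself in 57.1% and 39.7%. CCGGAAG, a form of the site of ETS factors, was in 42.9% and 12.2%, and the GC box GGGCGG in 70.8% and 48.3%. The TATA sequence TATAAA was rarer, in 3.73% against 14.0%. The median number of CG dinucleotides in a promoter was 20 against 14.

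Within the members, differences were set beside the motifs as a description. Over 131 member genes with a promoter and a probe measured in both conditions, the median log2 difference was 0.57 with CCAAT (74 genes) and 0.29 without it (57), 0.58 with TCCAATCA (32) and 0.35 without it (99), 0.57 with CCGGAAG (58) and 0.40 without it (73), and 0.46 with GGGCGG (89) and 0.56 without it (42). No test was made of these medians. The following windows show the motifs in a gene that fell and in one that rose, with capitals marking TCCAATCA, CCGGAAG and GGGCGG on either strand.
ZNF627 (fell; chr19:11597363-11597482, plus strand): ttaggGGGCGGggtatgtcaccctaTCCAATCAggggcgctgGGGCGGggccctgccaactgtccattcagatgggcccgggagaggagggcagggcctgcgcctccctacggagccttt
ZNF557 (rose; chr19:7069583-7069702, plus strand): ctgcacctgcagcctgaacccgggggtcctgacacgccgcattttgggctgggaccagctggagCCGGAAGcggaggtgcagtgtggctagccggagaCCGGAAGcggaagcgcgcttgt

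The corepressors through which KRAB zinc finger proteins act fell more often than they rose in the main scaling, and by little, but not with scaling on spike-in controls or with normexp. Of 26 genes of the TRIM28 pathway listed, 25 had a probe, and 38 probes were kept. By the adjusted p, 18 fell, 6 rose and 14 did not pass, where 28.0% and 29.7% of all probes kept were down and up, with a median log2 difference of -0.26 and none at 2-fold. Among probes measured in both conditions, 16 fell and 6 rose, where 27.9% and 29.7% of all such probes were down and up. TRIM28 itself did not pass (-0.12 ± 0.085 SE, limma adjusted p = 0.25). SETDB1, the methyltransferase, fell on both probes, by 0.54 and 0.47 on the log2 scale. In the HUSH complex, which silences transposable elements with SETDB1 and MORC2, MPHOSPH8 fell on all its probes (-0.82, -0.43 and -0.42). TASOR fell on the probe measured in both conditions (-0.33). Its other probe (-0.83) was well above background on 6 control arrays but on 4 of the others. PPHLN1 of the same complex had a probe (-0.58) with 5 such control arrays and 4 of the others. These probes of TASOR and PPHLN1 were kept through the control arrays only, which favours a difference, and are given as a description. The other kept probe of PPHLN1 did not pass (0.23). DNMT1 fell by 0.38 and HDAC1 by 0.30, whereas CBX3 (0.48), HDAC2 (0.22) and ATF7IP (0.59) rose. RBBP4 had 1 probe that rose (0.70) and another that fell (-0.47). With scaling on spike-in controls, 4 of the 38 probes rose past the test and 2 fell, and with normexp 2 rose and 2 fell.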

How the data were processed

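The scanner output deposited by the authors (Feature Extraction 10.7.3.1, design annotation hg18) gives the processed intensity of each spot after background subtraction, its median intensity, local background intensity and flags, the latter held here as score columns of the deposited files. The authors also deposited a table of log2 values, centred per probe. The study's methods used GeneSpring GX, a t-test and the Benjamini-Hochberg correction.

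Log2 processed intensities minus the 75th percentile of gene probes per array were fitted with limma 3.58.1 (R 4.3.3, lmFit and eBayes, no covariates) over all 24330 probes kept, without outlier spots, missing on at most 25% of arrays. No gene spot was saturated. Accessions were named through the RefSeq table (GRCh38.p14), which matched 23958 of 25868. Members, lists and alternatives were chosen with earlier results of these data known. Named were the 10 largest rises and falls among members measured in both conditions with completely separated arrays, genes with probes in opposite directions, the largest differences by the bound among probes measured in 1 condition, SRSF2, TRIM28 and corepressor probes at 2-fold. Other corepressors, ZNF493, ZNF347, ZNF256, ZNF135 and the brightest members were named after their values were seen. Protein features were not analysed here. On simulated data of 23740 probes, 192 of 200 changed by 1.5 on the log2 scale were recovered and 0 others called. Calls there needed both 2-fold and the adjusted p. The simulated noise was independent between arrays, without shared slides or repeat hybridisations. It therefore cannot tell how many calls in these data are false. Arrays with the same number in both conditions deviated together (correlations 0.28 to 0.64, 6 pairs), as did other pairs on a slide (0.33 to 0.65), but not those on different slides (-0.48 to -0.05), so the numbers pair through the slide. Alternatives were scaling, background correction, filters, the authors' table, the methods' t-test, blocks, means of 2 arrays and slides left out. The number of arrays, and of labelings behind them, limits the precision. The exact permutation test of single probes is not reported, because complete separation was part of the naming rule.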

Additional observations from a re-analysis of the deposited data

Results flagged for a closer look

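Among 60 groups of 6 arrays (30 named probes in both conditions), 7 held an array far from the others, by Dixon's criterion at the 95% level (the gap to the nearest array against the range of the group). Chance gives this in about 1 group in 20. Of the 7, 5 were of control replicate 3, the array with the fewest probes well above background. It lay at -5.68 in ZNF160 A_24_P16950 (other control arrays -4.07 to -3.46), at -5.25 in ZNF614 A_23_P355993 (-3.59 to -2.62), at -4.67 in ZNF557 A_23_P90021 (-4.32 to -4.14), at -2.42 in ZNF304 A_23_P208288 (-2.10 to -1.95) and, above the others, at -0.84 in ZNF606 A_23_P4628 (-2.21 to -1.87). Control replicate 6 lay at -4.37 in ZNF625 A_24_P344537, where the other control arrays lay between -3.46 and -3.04. SRSF2 over-expression replicate 4 lay at -1.71 in ZNF627 A_23_P135730, where the others lay between -2.33 and -2.13. Without control replicate 3 and SRSF2 over-expression replicate 4, a setting chosen after seeing the data, all 20 of the named largest rises and falls still passed the adjusted p with the same sign.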

How the results depend on the processing

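Of 564 values of named probes over 19 settings, 531 kept their direction and side of the threshold, 32 no longer passed (20 of them with normexp), 1 newly passed and 0 reversed. Of the group results, those that moved did so with the background correction, the spike-in scaling and the fold threshold. With normexp, 3 member probes were called up and 0 down at 2-fold, 30 up and 6 down by the adjusted p, the member median was 0.13, and 2 corepressor probes rose and 2 fell. Without background subtraction, 13 were called up and 1 down, and the median was 0.39. With scaling on spike-in controls, 55 were called up and 0 down, and 4 corepressor probes rose and 2 fell. The member median was then 0.73, against 0.22 for all probes. By the adjusted p, 4 members were down in that setting, where 5.53% of all probes measured in both conditions were. At 1.5-fold, 99 were up and 8 down. Shares of all probes at 1.5-fold, and at 2-fold under these settings, are not given here, so those counts are descriptions only. The cause of these moves was not tested. The member median exceeded that of all probes by 0.20 to 0.55 over these settings. With the replicate block, as with slide as a block, the same 35 probes were called at 2-fold. Each slide held 2 arrays of both conditions, so a block hardly alters the log2 difference, and that count could hardly move. By the adjusted p, slide as a block gave 145 of the 199 probes up and 30 down, against 141 and 25 without it. The shares of all probes were then 36.2% and 33.8%, against 29.6% and 27.8%. The mean spot signal is not among the columns used, and the median signal stood in for it in normexp and the setting without subtraction. The protein features were not run. For dim probes, the signal over background limits what can be told.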

Other observations

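ZNF493, chosen after its values were seen, was the only member beside ZNF562 and ZNF473 still called at 2-fold with normexp. Its probe A_24_P49775 ranged from -0.50 to -0.38 (median -0.48) in the controls and from 0.72 to 1.12 (median 0.78) in the arrays labelled over-expressing, with no overlap. The log2 difference was 1.34 ± 0.076 (SE; limma adjusted p = 1.70e-08), and 1.18 with normexp. Probe A_24_P74329 of the same gene rose by 1.07 ± 0.084 (SE), from a median of -0.54 to 0.47, and by 0.90 with normexp. Its probes A_23_P354942 (0.54) and A_24_P332862 (0.62) also rose, so that all 4 probes kept for this gene moved up.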
